A study of Mus musculus and Homo sapiens with 14 samples.

Results

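Oli-neu is a mouse line with features of oligodendrocyte precursor cells, the glial cells that divide, migrate and later form myelin. It was grown beside either of 2 medulloblastoma lines, and the 2 co-cultures are compared here directly, without the monoculture. Beside the human line D341, both libraries held more mRNA of the stress-inducible chaperone genes Hspa1a, Hspa1b and Hsph1 and of the BMP target genes Id1 and Mgp than either library beside the mouse line MB1. They held less mRNA of Nfasc, which codes for the adhesion protein neurofascin, of the precursor genes Gpr17 and Pdgfra, of the receptor gene Kit, and of the ERK pathway targets Egr2, Egr1, Dusp6 and Spry4. Among these genes, fold differences ran from 2.82 higher (Hspa1b) to 5.55 lower (Nfasc) on the scale of TPM + 1, with 2 libraries in each group. No single gene passed the test after adjustment over all genes, so these are differences in level and order, each with its error below.

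The comparison used 4 of the 14 libraries of the series. Oli-neu cells are mouse precursor cells immortalised with an activated form of the receptor ErbB2, and each group had 2 biological replicates, numbered 1 and 2. In the D341 group the partner was D341, a human line of Group 3 medulloblastoma. In the MB1 group it was MB1, a line of the SHH class made from tumours that Atoh1-cre:SmoM2 mice carried on postnatal day 12. In those mice a constantly active Smoothened is switched on in Atoh1-expressing cells, the granule neuron precursors of the cerebellum. The partner shared the dish across a 30 mm insert whose PTFE membrane had pores of 0.4 µm, so soluble factors could pass. Both groups, and the cells grown alone, received 20 ng/mL of EGF and 20 ng/mL of bFGF in DMEM/F-12 with B-27 and N-2 supplements. The partners differ at once in species, tumour class and origin, and these cannot be told apart. A single line stands for each tumour class. The members are all genes at 1 TPM (transcripts scaled to a fixed total per library) or more in at least 2 of the 4 libraries, which kept 11929 of 35288 identifiers, 10806 of them protein-coding genes and 1072 pseudogenes. The genes just inside this limit had a second-highest level of 1.00 to 1.01 TPM, and those just outside had 0.990 to 0.999 TPM.

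As background, oligodendrocyte precursors are held in a dividing state largely by PDGF acting on Pdgfra and by FGF. Both signal through the RAS-ERK cascade, which induces immediate early genes and its own inhibitors of the Sprouty and Dusp families. BMP signals act through SMAD proteins on the Id genes, and in these precursors they favour astrocyte features over myelination. The heat shock response is a separate programme, in which the factor HSF1 induces chaperones when proteins misfold.

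The line's own identity genes were present in all 4 libraries. Sox10, a factor of the whole lineage, stood at 178 and 196 TPM with D341 and at 212 and 235 TPM with MB1. Of 31 precursor markers 27 passed the filter (Nkx2-2 was at 0), and the summed level of the list was 1348 and 1389.5 TPM with D341 and 1579 and 1646 TPM with MB1. Of markers of other cells, astrocyte and Schwann cell lists are given with the precursor genes; 5 of 20 of the cerebellar granule lineage were tested (summed level 20.3 to 24.7 TPM, Zic4 and Gabra6 at 0), 2 of 14 of microglia (12.4 to 14.5 TPM, C1qa, C1qb and C1qc at 0), 4 of 16 of neurons (83.7 to 109 TPM, Slc17a6 at 0) and 3 of 15 of vessels and fibroblasts (63.2 to 89.7 TPM, Cdh5, Cldn5 and Pdgfrb at 0). Transcripts of the mouse partner can be followed through 15 genes that were high in MB1 grown alone and under 0.1 TPM in Oli-neu grown alone, although the tables of the lines were normalized separately. Their sum was 0.0719 and 3.36 TPM beside MB1, and 0.348 and 0.430 TPM beside D341, against 6031 and 5755 TPM in MB1 itself. Oli-neu alone, where the genes were chosen to be low, held 0.0923 and 0.472 TPM. Single genes weigh heavily in these sums. Mt2 gave 1.66 TPM in library 2 beside MB1. The processed pseudogene Gm10359 had a mean of 2612 TPM in MB1 alone and 0 in all 4 libraries. Library 2 beside MB1 held the most of the 4. Human transcripts of D341 cannot be followed in a mouse table, and whether any reached the values of conserved mouse genes was not tested. The libraries differed more by replicate number than by partner: Pearson's r over genes was 0.979 and 0.986 between same-numbered libraries, against 0.953 and 0.955 within a group, so medians within each number are given for the main lists.

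The test was limma on log2(TPM + 1), with Benjamini-Hochberg adjustment over the 11929 genes. It called no gene at an adjusted p under 0.05 (0% of genes), and the lowest adjusted p was 0.263. At an unadjusted p under 0.05 there were 92 genes higher (0.771%) and 339 lower (2.84%) with D341, together 431 (3.61%). The threshold alone would give 596, but this fit leaves differences between the replicate numbers in its error. With the number as a block, 216 were higher and 720 lower, against the same 596 for both directions, and no gene was called. With 2 libraries against 2, an exact permutation test of a single gene cannot go below p = 0.333. The median gene differed by 0.18 on the log2 scale between the D341 libraries, by 0.21 between the MB1 libraries and by 0.14 between the group means. Half-widths of the 95% interval had a median of 0.45, and for 10180 genes (85.3%) the whole interval lay within 1 log2 unit of no difference.

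Most genes had a lower TPM with D341, and every list below is read against that background. The mean was lower for 8205 genes (68.8%) and higher for 3724 (31.2%), with a median difference of -0.09. Groups that did not overlap, meaning that both libraries of one group lay beyond both of the other, were found for 3471 genes lower (29.1%) and 782 higher (6.56%). Scaling the libraries by the median ratio of their genes moved the median by 0.10 to 0.01 and evened this out. On that scaling 1887 genes were apart and lower (15.8%) and 1758 apart and higher (14.7%). A difference of about 0.1 therefore depends on the scaling.

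Chaperone genes were among those higher with D341. Hspa1a and Hspa1b code for the inducible HSP70 proteins, lie side by side on chromosome 17 (GRCm38, positions 34969190 to 34972156 and 34956436 to 34959238) and are nearly identical, and how reads were divided over the pair is uncertain. Hsph1 (HSP110) codes for the exchange factor that recharges HSP70. The 250 bases before the annotated start of each, from RefSeq's GRCm38.p6 table and all on the minus strand, are shown because the 3 genes were higher together and carry the short core of the element that HSF1 binds. Capitals mark GAANNTTC or TTCNNGAA, which read the same on both strands and can overlap each other.
Hspa1a, chr17:34972157-34972406: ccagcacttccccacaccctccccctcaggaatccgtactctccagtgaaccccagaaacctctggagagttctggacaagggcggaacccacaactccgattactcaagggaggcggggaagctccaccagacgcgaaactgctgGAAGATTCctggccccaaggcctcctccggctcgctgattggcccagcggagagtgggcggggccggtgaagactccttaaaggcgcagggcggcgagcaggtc
Hspa1b, chr17:34959239-34959488: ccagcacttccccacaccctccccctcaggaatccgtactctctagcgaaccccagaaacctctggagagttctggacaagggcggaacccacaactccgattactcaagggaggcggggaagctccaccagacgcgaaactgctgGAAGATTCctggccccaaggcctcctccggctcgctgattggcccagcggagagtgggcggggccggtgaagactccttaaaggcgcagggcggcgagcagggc
Hsph1, chr5:149636337-149636586 (the first of 2 listed starts): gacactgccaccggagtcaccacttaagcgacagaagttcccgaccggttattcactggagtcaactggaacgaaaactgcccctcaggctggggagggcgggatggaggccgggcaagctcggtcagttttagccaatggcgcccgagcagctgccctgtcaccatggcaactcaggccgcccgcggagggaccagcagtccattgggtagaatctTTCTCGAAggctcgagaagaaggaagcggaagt
The Hspa1a and Hspa1b windows were alike at 247 of 250 positions, each with GAANNTTC beginning 104 bases before the start, and Hsph1 had TTCNNGAA beginning 33 bases before it. One or the other motif stood in 14.5% of the 27025 genes with a listed promoter, in 11.7% of the 8583 of these that were tested, and in 8 of the 18 heat shock genes (44.4%) with an entry. A match is a description of letters and not evidence of binding.

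Hspa1a stood at 12.0 and 11.0 TPM with D341 (mean 11.5 ± 0.729, SD, n = 2) and at 3.36 and 4.46 TPM with MB1 (3.91 ± 0.777, SD, n = 2), against 2.15 and 3.03 TPM in Oli-neu alone. The groups were far apart, and the monoculture lay below both. The log2 difference was 1.35 (SE 0.16, 95% interval 0.91 to 1.79, limma adjusted p = 0.852). Hspa1b was also higher with D341, with 20.8 and 22.1 TPM against 5.36 and 8.93 TPM with MB1. The difference was 1.50 (SE 0.25, interval 0.82 to 2.17, limma adjusted p = 0.945). Its monoculture, at 4.17 and 6.74 TPM, overlapped the MB1 group. Hsph1 stood at 31.0 and 36.9 TPM against 21.0 and 23.3 TPM, a difference of 0.59 (SE 0.15), while cells alone had 20.8 and 21.6 TPM, close to the MB1 group.

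The whole heat shock list, those 3 genes included, had 25 tested members (28 listed), of which 15 were higher and 10 lower; 8 were apart and higher (32.0%, against 6.56% of all genes) and 1, Hspa4l, apart and lower, against 29.1% of all genes. The median was 0.05, with -0.01 within number 1, 0.09 within number 2 and 0.17 after median-ratio scaling; without library 2 of the MB1 group it was -0.03. Besides the 3 genes above, the members apart and higher included Hspa8, Dnajb1, Hspe1 and Hsf1. Dnajb1, an HSP40 co-chaperone that HSF1 also induces, had 13.0 and 14.3 TPM against 12.7 and 11.7 TPM, and the gap between the nearest libraries was smaller than the spread within either group. Major chaperones such as Hsp90aa1, Hsp90ab1, Hspd1 and Cryab overlapped between the groups, and Bag3, Hspb1 and Hspb8 were under 0.3 TPM throughout. The 21 ER chaperones answer to a different stress pathway. Of these, 2 were apart and higher (9.52%, against 6.56% of all genes) and 1 apart and lower (4.76%, against 29.1%). Their medians were -0.13 within number 1 and 0.12 within number 2. After median-ratio scaling their median was 0.13, against 0.17 for the heat shock list. On that scaling 6 ER chaperones were apart and higher (28.6%, against 14.7%) and 0 apart and lower (against 15.8%). The heat shock list then had 13 of 25 apart and higher and 1 apart and lower.

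**Figure D1:**
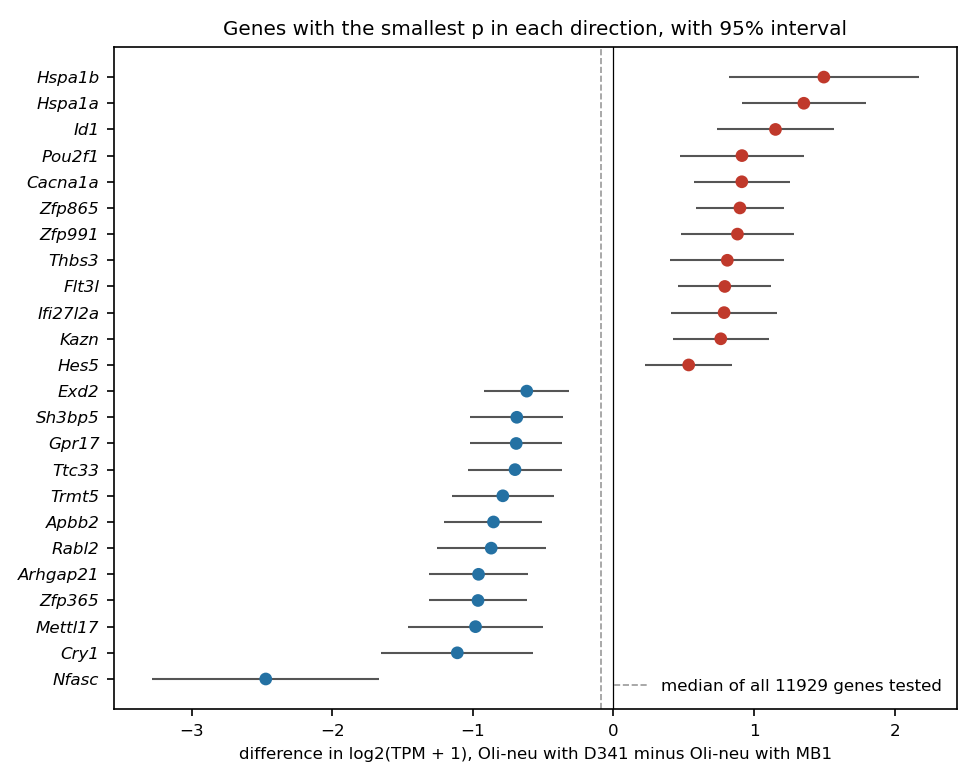
Log2(TPM + 1) differences (x axis, D341 minus MB1) with 95% limma intervals for the 12 named genes of smallest p in each direction (y axis), chosen for small p, which selects wide differences. The interval of Nfasc spans -3.28 to -1.67 and that of Hspa1b 0.82 to 2.17; the dashed line is the median of all genes, -0.09, and none passed the adjusted threshold.

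Of 12 tested BMP targets 7 had a higher mean and 5 a lower one, with Id1 standing out. Id1 (chromosome 2, positions 152736251 to 152737410) codes for an inhibitor of bHLH factors such as Olig2 and is the classic early target of BMP receptors. It stood at 52.3 and 52.9 TPM with D341, at 21.0 and 25.5 TPM with MB1 and at 31.7 and 29.4 TPM in cells alone. The D341 libraries were the highest of the 6 and the MB1 libraries the lowest, so the groups lay on either side of the monoculture. The difference was 1.15 (SE 0.15, interval 0.74 to 1.57, limma adjusted p = 0.852), with 1.28 within number 1 and 1.02 within number 2.

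Mgp, a matrix protein that binds BMPs, stood at 4182 and 3064 TPM with D341 and at 2395 and 1787 TPM with MB1, a difference of 0.79 (SE 0.26, interval 0.10 to 1.48). Both co-cultures were above the monoculture, which had 1057 and 653 TPM. Id4 differed less, at 10.4 and 10.4 TPM against 8.31 and 8.70 TPM (0.26, SE 0.11), and its interval reached below 0. The transcription factor gene Atoh8 had 1.67 and 1.15 TPM against 0.510 and 0.819 TPM (0.53, SE 0.21), near the detection filter. Msx1 and the decoy receptor gene Bambi were also apart and higher, by 0.19 and 0.17. Id2 overlapped, at 55.1 and 44.4 TPM against 54.7 and 39.6 TPM. The inhibitory Smad7 overlapped too, and Id3 and Smad6 did not reach the filter.

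In the other direction, Runx2, a bone master factor that BMP induces, stood at 1.86 and 1.85 TPM against 3.07 and 2.42 TPM (-0.39), and the ubiquitin ligase genes Smurf1 and Smurf2 were apart and lower by about the shift between the scalings. Of the 12 tested targets 6 were apart and higher and 3 apart and lower, with a median of 0.13 (0.07 within number 1, 0.14 within number 2). The signalling parts of the pathway did not follow Id1. The ligand genes Bmp1, Bmp7 and Gdf11 were all apart and lower (100%, against 29.1% of all genes), with a median of -0.21. Smad1 and Smad5, the transducers of BMP receptors, were apart and lower by 0.20 and 0.34 (66.7% of 3 tested SMAD genes). Of 6 receptor genes 1, Acvr2a, was apart and lower (16.7%, against 29.1%). None of 4 extracellular inhibitors was apart in either direction. Over the whole pathway of 28 tested genes (54 listed), 6 were apart and higher (21.4%, against 6.56% of all genes) and 9 apart and lower (32.1%, against 29.1%). The median of -0.06 turned to 0.03 after median-ratio scaling, with 7 apart and higher (25.0%, against 14.7%) and 6 apart and lower (21.4%, against 15.8%).

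Targets and brakes of the ERK pathway were lower with D341. Of 37 tested (41 listed), 29 had a lower mean and 8 a higher one; 20 were apart and lower (54.1%, against 29.1% of all genes) and 5 apart and higher (13.5%, against 6.56%). The median was -0.18, with -0.12 within number 1 and -0.19 within number 2. After median-ratio scaling it was -0.08, with 12 apart and lower (32.4%, against 15.8% of all genes) and 6 apart and higher (16.2%, against 14.7%). Leaving out 1 library at a time, the median without that scaling ran from -0.22 to -0.09, the latter without library 1 of the D341 group. At an unadjusted p under 0.05 there were 5 lower and 1 higher. The list was kept because earlier work on these data had shown it lower, so its direction here is not independent evidence.

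Feedback inhibitors were even, with 7 of 9 apart and lower (77.8%, against 29.1% of all genes) and none apart and higher. After median-ratio scaling 4 were apart and lower (44.4%, against 15.8% of all genes). Dusp6, the phosphatase that inactivates ERK, stood at 50.3 and 53.04 TPM with D341 and at 75.6 and 73.6 TPM with MB1, with cells alone in between at 59.6 and 60.8 TPM. The difference was -0.52 (SE 0.13, interval -0.87 to -0.17). Spry4, a Sprouty inhibitor of receptor signalling, had 8.23 and 8.78 TPM against 12.7 and 12.3 TPM (-0.51, SE 0.12). Spry2 differed by -0.29, and Spred1, Spred2, Dusp4 and Dusp5 by -0.34 to -0.17. Spry1 and Errfi1 overlapped.

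Immediate early factors were mixed. Of 19 tested, 9 were apart and lower (47.4%, against 29.1% of all genes) and 5 apart and higher (26.3%, against 6.56%). After median-ratio scaling 6 were apart and lower (31.6%, against 15.8%) and 5 apart and higher (26.3%, against 14.7%). Egr2 had the smallest p of the whole list, at 1.03 and 1.01 TPM with D341 and 2.79 and 2.71 TPM with MB1 (-0.89, SE 0.14, interval -1.27 to -0.52), although its monoculture libraries disagreed, at 2.92 and 1.32 TPM. Egr1 stood at 39.4 and 38.2 TPM against 56.5 and 64.6 TPM (-0.63, SE 0.14), and the cells alone, at 39.1 and 45.6 TPM, lay nearer the D341 group. Fos had 60.5 and 59.0 TPM against 73.1 and 80.6 TPM (-0.36, SE 0.13), and both groups were above the 36.2 and 41.4 TPM of cells alone. These 3 genes therefore took different places against the monoculture. Nr4a2 was lower by 0.92 but uneven, at 7.27 and 16.2 TPM against 23.7 and 19.6 TPM, and Myc was lower by 0.32. The members apart and higher were Klf4 (5.65 and 5.91 TPM against 4.34 and 4.39 TPM, 0.34), Atf3 (0.24), Fosl2 (0.21), Ier5 (0.16) and Jun (0.12). Junb, Ier2, Srf, Klf6 and Klf10 overlapped.

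Among the ETS factors, which ERK activates and induces, Etv5 stood at 22.1 and 24.6 TPM against 32.5 and 28.7 TPM (-0.38), Etv1 was lower by 0.40 and Etv4 by 0.21. The cyclin gene Ccnd1 was apart and lower by 0.13. Phlda1, Dusp1, Dusp2, Mcl1 and Btg2 overlapped, and the median of these 9 was -0.04.

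**Figure D2:**
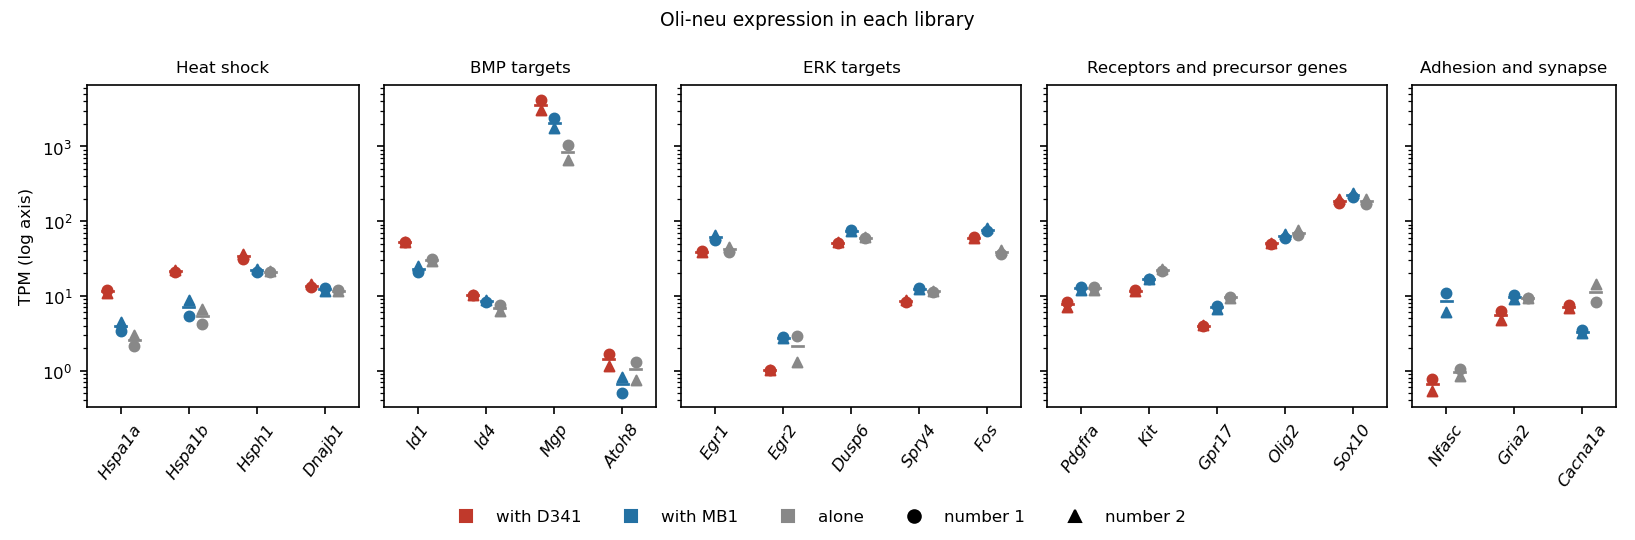
TPM on a log axis (y) for members of 5 groups (x) in each library, red with D341, blue with MB1 and grey alone, circles for number 1, triangles for number 2 and bars for means. Hspa1a and Id1 sit highest with D341 (11.0 to 12.0 and 52.3 to 52.9 TPM), and Nfasc is near 1 TPM or below except with MB1 (6.05 and 11.0 TPM).

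Receptors of growth factors were lower together with these targets. Of 13 tested receptor genes 8 were apart and lower (61.5%, against 29.1% of all genes), with a median of -0.22. The 2 apart and higher (15.4%, against 6.56%) were Erbb4 and Fgfr3. After median-ratio scaling 5 were apart and lower (38.5%, against 15.8%) and 2 apart and higher (15.4%, against 14.7%), with a median of -0.13. Pdgfra, the PDGF receptor that marks precursors, stood at 8.42 and 7.13 TPM with D341 and at 13.3 and 11.9 TPM with MB1, where the cells alone had 13.2 and 12.0 TPM. The MB1 group thus sat at the level of the monoculture and the D341 group below it, and the difference was -0.64 (SE 0.14, interval -1.02 to -0.25). Kit, the receptor for stem cell factor, had 11.8 and 11.7 TPM against 17.1 and 17.1 TPM (-0.50, SE 0.11), with 21.7 and 22.8 TPM alone. Axl differed by -0.45, Erbb3 by -0.31 and Erbb2 by -0.44, the last with a wide spread (17.7 and 13.6 TPM against 24.8 and 18.6 TPM).

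For the 2 factors in the medium, Egfr was under 0.06 TPM in all 4 libraries, and the FGF receptor gene Fgfr1 stood at 24.3 and 22.9 TPM against 29.8 and 25.1 TPM (-0.20). Erbb4, a neuregulin receptor, had 2.03 and 1.91 TPM against 1.46 and 1.08 TPM (0.39). Of the ligand genes, Pdgfa was apart and higher by 0.20, while Vegfa (816 and 932 TPM against 1025 and 1045 TPM) and Hbegf were apart and lower. Over all 25 tested receptor, ligand and adaptor genes (43 listed), 12 were apart and lower (48.0%, against 29.1% of all genes). Another 4 were apart and higher (16.0%, against 6.56%). After median-ratio scaling 5 were apart and lower (20.0%, against 15.8%) and 4 apart and higher (16.0%, against 14.7%), near the shares of all genes. The median of the 25 was -0.16 before scaling, with -0.28 within number 1 and -0.09 within number 2, and -0.06 after it.

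Precursor markers were lower with D341 in the same way. Of 27 tested, 15 were apart and lower (55.6%, against 29.1% of all genes) and 3 apart and higher (11.1%, against 6.56%), with a median of -0.23. It was -0.27 within number 1 and -0.24 within number 2. After median-ratio scaling it was -0.13, with 11 apart and lower (40.7%, against 15.8%) and 3 apart and higher (11.1%, against 14.7%). In bulk RNA, fewer cells in the precursor state and less of these transcripts per cell cannot be told apart. Gpr17, a receptor gene of precursors about to differentiate, stood at 3.97 and 4.03 TPM with D341, at 7.42 and 6.73 TPM with MB1 and at 9.81 and 9.43 TPM alone. Its groups were well separated, by -0.69 (SE 0.12, interval -1.02 to -0.36, limma adjusted p = 0.945), and both co-cultures were below the monoculture. The lineage factor gene Olig2 had 49.2 and 51.7 TPM against 59.9 and 67.2 TPM (-0.33, SE 0.14), and Sox10 differed by -0.26.

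Genes that build or modify the pericellular matrix were part of this list. Xylt1, which starts the sugar chains of proteoglycans, had 16.3 and 15.5 TPM against 23.3 and 21.0 TPM (-0.45, SE 0.13). The proteoglycan genes Vcan and Bcan were lower by 0.42 and 0.23, but the 2 libraries beside MB1 disagreed for Vcan, with 192 and 134 TPM against 120 and 118 TPM beside D341. Cspg4, the NG2 proteoglycan, overlapped, at 86.9 and 88.5 TPM against 86.3 and 103 TPM, and its sign depended on the scaling. Zfp36l1, which codes for an RNA-binding protein, was lower by 0.51. Matn4 and Ncan were among the members apart and higher, by 0.27 and 0.08. The summed TPM of markers of neighbouring glia was lower too, without median-ratio scaling. The summed level of 20 astrocyte markers, 11 of them tested and none at 0 throughout, was 1133 and 1129 TPM with D341 and 1403 and 1305.5 TPM with MB1, and that of 15 Schwann cell markers, 10 of them tested and Foxd3 at 0, was 493 and 487 TPM against 520 and 545.5 TPM. The lists share members with the precursor genes (Sox10, Erbb3), and the part of such cells in the result was not tested.

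Myelin genes did not go the opposite way. Of 23 tested (37 listed), 12 were apart and lower (52.2%, against 29.1% of all genes) and 1, Cd9, apart and higher (481 and 452 TPM against 429 and 394 TPM). The median was -0.17, with -0.23 and -0.22 within the numbers. After median-ratio scaling it was -0.09, with 6 apart and lower (26.1%, against 15.8%) and 1 apart and higher (4.35%, against 14.7%). Cnp, an enzyme of myelin membranes, had 16.0 and 18.1 TPM against 20.5 and 21.8 TPM (-0.30). Mbp differed by -0.15 and Myrf, the factor that drives myelin genes, by -0.29. The 95% intervals of Cnp and Mbp both reached above 0.

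Of all named genes, Nfasc had the widest gap. Nfasc (chromosome 1, positions 132564690 to 132741797), whose product anchors axon and glia contacts at the node of Ranvier, stood at 0.775 and 0.541 TPM with D341 and at 11.0 and 6.05 TPM with MB1. Cells alone had 1.07 and 0.847 TPM, so the MB1 group was the one that stood out. The difference was -2.47 (SE 0.30, interval -3.28 to -1.67, limma adjusted p = 0.852), with -2.75 within number 1 and -2.19 within number 2. MB1 cells grown alone held 15.3 and 2.76 TPM of Nfasc. Library 1 beside MB1, in which the 15 partner genes summed to 0.0719 TPM, held the higher of the Nfasc levels. Of 28 tested adhesion genes (36 listed), 9 were apart and lower (32.1%, near the 29.1% of all genes) and 3, L1cam, Itga6 and Itga7, apart and higher. Cdh10 and Cntn1 were lower by 0.45 and 0.49, and L1cam had 4.87 and 4.85 TPM against 3.86 and 3.16 TPM (0.38).

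Ion channel and synapse genes, through which precursors receive input from neurons, were lower for 12 of 15 tested (36 listed), 9 of them apart (against 29.1% of all genes), and 1 was apart and higher. The median was -0.26, with -0.37 within number 1, -0.22 within number 2 and -0.18 after median-ratio scaling. The AMPA receptor subunit gene Gria2 had 6.29 and 4.73 TPM against 10.3 and 9.05 TPM (-0.72, SE 0.17), with 9.36 and 9.49 TPM alone. The MB1 group lay near the monoculture and the D341 group below it. Grik3 was lower by 0.46, and Gria3 and Gria4 were apart and lower. Cacna1a, a calcium channel subunit, was the exception, with 7.48 and 6.81 TPM against 3.47 and 3.17 TPM (0.91, SE 0.13, limma adjusted p = 0.852). Its monoculture level was at or above the D341 group, at 8.30 and 14.3 TPM.

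Matrix and guidance genes gave further single gaps. Tnr, which codes for the matrix protein tenascin-R, had 5.22 and 4.65 TPM against 11.7 and 7.61 TPM (-0.82, SE 0.23), Reck, an inhibitor of matrix proteases, was lower by 0.61, and the guidance cue gene Ntn1 by 0.43. Lama5, a laminin chain, was apart and higher (149 and 142 TPM against 113 and 115 TPM, 0.35). Of 38 tested TGF-beta and matrix genes 15 were apart and lower (39.5%, against 29.1% of all genes) and 8 apart and higher (21.1%, against 6.56%). The median of -0.10, with -0.13 and -0.03 within the numbers, turned to 0.01 after median-ratio scaling. On that scaling 9 were apart and lower (23.7%, against 15.8%) and 12 apart and higher (31.6%, against 14.7%).

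**Figure D3:**
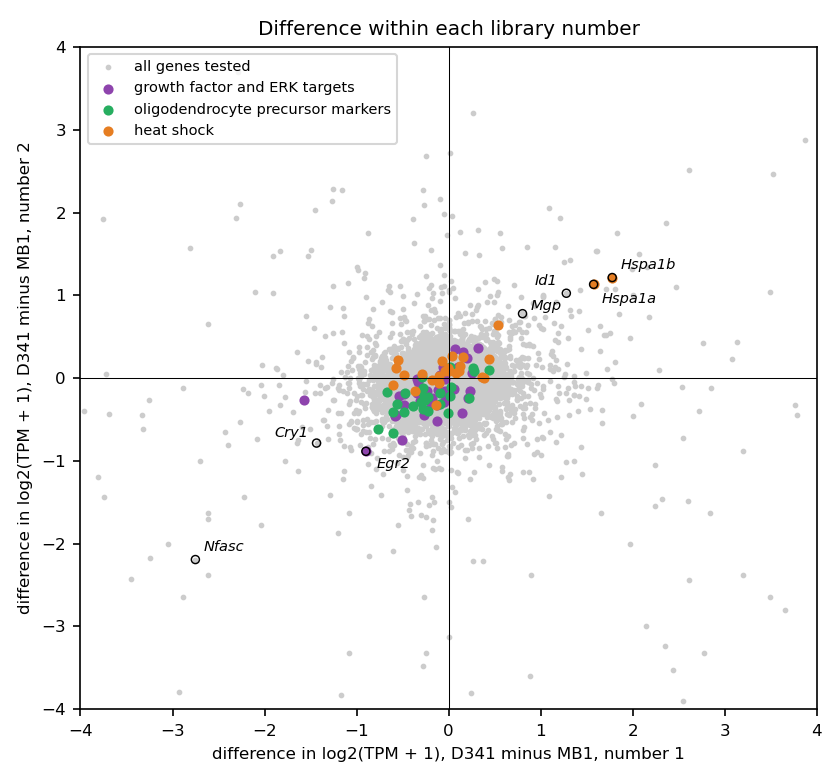
Difference in log2(TPM + 1), D341 minus MB1, within libraries numbered 1 (x axis) and 2 (y axis), for 11929 genes (17 lie outside the plotted range of 4), with 3 lists in colour. Nfasc, Cry1, Id1, Mgp, Hspa1a and Hspa1b lie far from 0 on both axes, while over all genes the 2 sets of differences had r = 0.06 and 60.2% had the same sign.

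Among the remaining genes of smallest p, those lower with D341 were Zfp365 (2.68 and 2.75 TPM against 6.66 and 5.84 TPM, -0.96, SE 0.13), Arhgap21 (16.3 and 16.4 TPM against 30.9 and 34.8 TPM, -0.96, SE 0.13) and the clock repressor gene Cry1 (12.2 and 14.6 TPM against 34.6 and 25.9 TPM, -1.11, SE 0.20). Mettl17, Rabl2, Apbb2, Trmt5, Ttc33, Sh3bp5 and Exd2 were lower by 0.62 to 0.98. Those higher were Zfp865 (9.39 and 8.87 TPM against 4.44 and 4.42 TPM, 0.90, SE 0.11), Pou2f1 (0.91), Zfp991 (0.88), Thbs3 (0.81), Flt3l (0.79), Ifi27l2a (0.79) and Kazn (0.76). Flt3l and Pou2f1 had monoculture libraries that disagreed widely, at 3.19 and 19.8 TPM and at 2.69 and 9.07 TPM. Adjusted p-values in limma were 0.852 for Zfp365, Arhgap21 and Zfp865 and 0.945 for the others.

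Among genes of other developmental pathways, Hes5, a Notch target that holds precursors undifferentiated, was higher (15.3 and 15.6 TPM against 10.5 and 10.2 TPM, 0.54, SE 0.11, interval 0.23 to 0.84), and cells alone had 18.2 and 17.5 TPM. Hes5 was the single Notch gene of 13 apart and higher (7.69%, against 6.56% of all genes). Hey2, Lfng and Dll3 were the 3 apart and lower (23.1%, against 29.1%), so the list did not exceed the background. Of 7 tested hedgehog genes (20 listed) 5 were apart and lower (71.4%, against 29.1% of all genes). After median-ratio scaling 4 were (57.1%, against 15.8%). The median of the 7 without that scaling was -0.18, with -0.20 and -0.09 within the numbers. Gas1, a co-receptor, had 8.92 and 9.65 TPM against 12.9 and 13.8 TPM (-0.48, SE 0.12), Ptch1, both receptor and target, had 3.38 and 3.51 TPM against 4.64 and 4.53 TPM (-0.33, SE 0.12), and Smo was lower by 0.18. Gas1 was also lower than in cells alone, at 14.8 and 16.3 TPM. Of 17 tested Wnt genes 3 were apart and higher (17.6%, against 6.56% of all genes) and 4 apart and lower (23.5%, against 29.1%). Wif1, a secreted inhibitor, was higher by 0.48. Dhrs3, which converts retinal back to retinol, was high in both co-cultures, at 9.31 and 8.17 TPM with D341 and 11.0 and 9.98 TPM with MB1 against 1.85 and 1.84 TPM alone, and the co-cultures differed by -0.24 (SE 0.13).

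Genes of DNA replication were higher on balance, and this held within both numbers. Of 47 tested (48 listed), 34 had a higher mean; 12 were apart and higher (25.5%, against 6.56%) and 5 apart and lower (10.6%, against 29.1%). The median was 0.05, with 0.09 within number 1, 0.04 within number 2 and 0.16 after median-ratio scaling, and without library 2 of the MB1 group it was -0.0035. Mcm3, a helicase subunit, stood at 32.3 and 32.4 TPM against 26.9 and 26.8 TPM (0.26, SE 0.12), Pcna, the sliding clamp, at 36.3 and 41.1 TPM against 33.4 and 31.5 TPM, and Pole2 differed by 0.53 (SE 0.19). Cells alone had 36.3 and 43.0 TPM of Mcm3 and 13.0 and 12.4 TPM of Tyms, which stood at 7.72 and 7.79 TPM with D341 and 5.88 and 6.71 TPM with MB1. The MB1 group was therefore the lowest of the 3 for both genes. Mitotic genes showed no common direction without median-ratio scaling, with medians of -0.17 (number 1) and 0.21 (number 2). Of 42 tested, 2 were apart and higher (4.76%, against 6.56% of all genes) and 0 apart and lower (against 29.1%). After median-ratio scaling their median was 0.16, and 35 had a higher mean. On that scaling 11 were apart and higher (26.2%, against 14.7%) and 0 apart and lower (against 15.8%).

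Ribosomal protein genes had a higher mean for 55 of 77, but by a median of 0.06. Of the 77, 6 were apart and higher (7.79%, against 6.56% of all genes) and 3 apart and lower (3.9%, against 29.1%). After median-ratio scaling 71 lay higher on average, and the median was 0.18. On that scaling 29 were apart and higher (37.7%, against 14.7%) and 1 apart and lower (1.3%, against 15.8%). Without that scaling, the median of ribosomal protein genes was -0.0011 when library 2 of the MB1 group was left out. It was -0.02 without library 1 of the D341 group. Many ribosomal protein genes have processed pseudogenes that share reads, so these values are uncertain. Interferon and antigen presentation genes had a higher mean for 19 of 25 tested (47 listed). Of the 25, 6 were apart and higher (24.0%, against 6.56% of all genes) and 2 apart and lower (8.00%, against 29.1%). The median was 0.09 (0.10 and 0.06 within the numbers, 0.21 after median-ratio scaling). The MHC gene H2-Q4, one of a family of near copies, had 7.55 and 7.40 TPM against 5.98 and 5.50 TPM (0.33), and Ifitm3 was higher by 0.36, while Ifit2 and Rsad2, also interferon targets, were lower by 0.27 and 0.46.

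Metabolic and stress lists had medians that differed between the replicate numbers. The amino acid stress list, targets of ATF4, had medians of -0.44 (number 1) and -0.01 (number 2). Of its 23 tested members 9 were apart and lower (39.1%, against 29.1% of all genes) and 3 apart and higher (13.0%, against 6.56%). After median-ratio scaling 2 were apart and lower (8.70%, against 15.8%) and 4 apart and higher (17.4%, against 14.7%). Its clearest members were the transporter gene Slc1a4 (10.8 and 11.4 TPM against 17.5 and 15.6 TPM, -0.53, SE 0.13) and Pycr1, an enzyme of proline synthesis (-0.47, SE 0.14), while Ddit3 ranged from 0 to 702 TPM within the D341 group. Hypoxia and glycolysis genes had 14 of 36 apart and lower (38.9%, against 29.1% of all genes), with medians of -0.27 and 0.02 for the numbers, among them Hk2 (-0.38) and Aldoc (-0.34). With median-ratio scaling 8 were apart and lower (22.2%, against 15.8%) and 5 apart and higher (13.9%, against 14.7%). Lysosome and autophagy genes had 15 of 40 apart and lower (37.5%, against 29.1% of all genes), with medians of -0.28 and -0.01. After median-ratio scaling 5 were apart and lower (12.5%, against 15.8%) and 3 apart and higher (7.50%, against 14.7%), with a median of -0.02. Cholesterol genes had opposite medians, -0.31 and 0.19, and 3 of 30 were apart; the median over group means, -0.06, turned to 0.04 with median-ratio scaling.

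**Figure D4:**
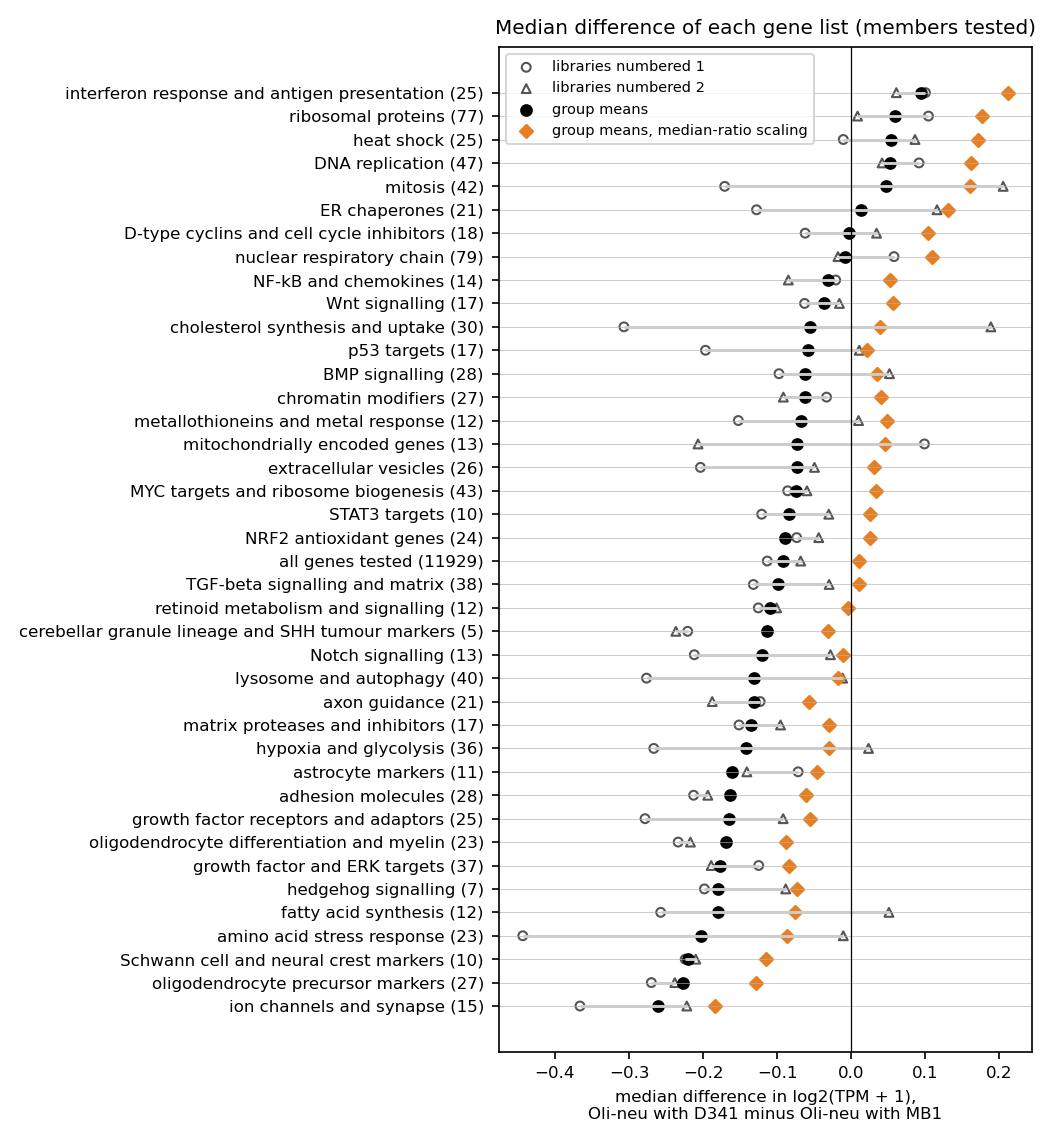
Median log2(TPM + 1) difference, D341 minus MB1 (x axis), of each gene list with at least 5 tested members (y axis, number tested in brackets): open symbols within libraries numbered 1 and 2, black for group means and orange for group means after median-ratio scaling. Ion channel and synapse genes and precursor markers lie lowest (-0.26 and -0.23) and interferon genes highest (0.09); mitosis and cholesterol lists cross 0 between the numbers.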

How the data were processed

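Poly(A) RNA of Oli-neu cells in co-culture was sequenced from directional libraries over 75 cycles. The authors deposited TPM values per gene in 1 table for each cell line, and all columns used here add up to 1000000. Salmon 0.14.1 and the builds GRCm38 and GRCh38 are listed in the submitters' processing notes, beside DESeq2 1.22.2 and the quality tools FastQC 0.11.8 and MultiQC 1.7; their order and settings are not given in the sources used here. TPM keeps no depth, so depth is unknown and no counting interval is given; 11596 to 11818 genes reached 1 TPM per library. Pseudogenes took 36.3% to 38.2% of each library's TPM.

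Gene names and positions came from GENCODE M21 on GRCm38, which matched 35099 of 35288 identifiers, and promoters from RefSeq. Values were taken to log2(TPM + 1) and the 2 groups were compared in R 4.3.3 by limma 3.58.1 (trended prior, 2-sided), with Benjamini-Hochberg adjustment at 0.05; the script was tested on simulated data. The members and lists were chosen with earlier results of these data known, so lists are described by counts and medians with no test. Named genes were the 12 of smallest p in each direction whose groups were apart and of which 1 had a mean of 5 TPM or more (no predicted models, pseudogenes or mitochondrial genes), up to 4 of smallest p in each list of at least 5 tested members, and core pathway members; a few others are named as parts of a list. Alternatives changed the pseudocount, filter, scaling, gene set, spread estimate, libraries in the fit and replicate block. Some lists appear only in the plot of list medians, and some results are not reported here.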

Additional observations from a re-analysis of the deposited data

How the results depend on the processing

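Limma called no gene under any alternative except protein-coding genes alone, where 1, Gm10985, was called lower (adjusted p = 0.034). Counts at an unadjusted p under 0.05, 92 higher and 339 lower as reported, were 283 and 542 with no filter on low values, 44 and 208 with a filter of 5 TPM, and 177 and 181 with median-ratio scaling; 522 were lower with the monoculture in the fit. Leaving out 1 library at a time gave 47 to 155 higher and 159 to 506 lower, with the lone library assumed to vary like the other group. Same-numbered libraries deviated together (r = 0.64 over genes between the 2 groups), but there are only 2 pairs and the labels state no pairing; with the replicate block the counts were 216 and 720, and with the block and median-ratio scaling 407 and 314, with no call. The other settings, pseudocounts of 0.1 and 5 TPM, no mitochondrial genes, no trend and a robust fit, kept both counts within 1.5 times. Of 175 named genes 167 kept their direction in every alternative; the others were Id2, Smad7, Cspg4, Meis1, Zic5, mt-Co3, mt-Nd2 and mt-Nd3. Of 43 list medians 15 changed sign with median-ratio scaling, 2 with protein-coding genes alone and 3 to 7 when 1 library was left out; the cause was not tested. Depth is unknown, so genes near 1 TPM carry an error that cannot be separated from counting noise.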

Other observations

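Clock genes, a list chosen after the values were seen and so given without any test, held more than Cry1. Of 17 tested, Cry1, Tef, Nr1d2, Per1, Per3, Clock, Hlf and Rora were lower with D341 with groups apart, and Bhlhe41 was higher; over all genes 29.1% were apart and lower and the median difference was -0.09. Tef, a transcription factor driven by the clock, stood at 22.2 and 14.0 TPM with D341 and at 33.3 and 29.7 TPM with MB1, and Nr1d2, a nuclear receptor of the clock, at 7.79 and 8.73 TPM against 10.8 and 11.4 TPM. Arntl, Per2, Cry2, Nr1d1 and Dbp overlapped between the groups. The differences of Per1, Per3 and Rora were small, at -0.25, -0.21 and -0.18. The clock values are without median-ratio scaling, which moved the median of all genes by 0.10, so the count of genes apart may depend on it. The sources used here give no time of harvest, and its part in these values was not tested.

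Some wide gaps fell outside the rule for named genes and were chosen after their values were seen. Gm10985, a short predicted gene on chromosome 3, was listed at 0 in both D341 libraries and in Oli-neu alone, and at 6.38 and 5.27 TPM beside MB1 (limma adjusted p = 0.263). Klf8, a transcription factor gene, stood at 1.08 and 1.03 TPM with D341, at 0.0198 and 0.0210 TPM with MB1 and at 0.0187 and 0.0191 TPM alone. Cbr2, a carbonyl reductase gene, had 4.78 and 4.05 TPM against 1.29 and 2.01 TPM, and D2hgdh had 0.583 and 0.0903 TPM against 2.63 and 2.98 TPM. On-off patterns were mostly pseudogenes: 12 genes were listed at 0 in both D341 libraries and at 1 TPM or more in both MB1 libraries, 10 of them pseudogenes, and 14 showed the reverse, 12 of them pseudogenes.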
